A study of Mus musculus with 23 samples.

Results

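The genes described here are the semaphorins, plexins, neuropilins, ephrins, Eph receptors, Slits, Robo receptors and netrins, the families that guide growing axons and that also pattern blood vessels. Members were taken by symbol from the gene list of the deposited single-cell matrices: every Sema, Plxn, Epha, Ephb, Efna or Efnb symbol followed by a number or letter, and Nrp1, Nrp2, Slit1, Slit2, Slit3, Robo1, Robo2, Robo4, Unc5b, Ntn1 and Ntn4. The rule gave 65 of 32285 genes. They are 7 class 3 semaphorins, 6 class 4 and 7 class 5 to 7 semaphorins, 9 plexins, 2 neuropilins, 9 EphA and 5 EphB receptors, 5 ephrin-A and 3 ephrin-B ligands, 3 Slits, 3 Robo receptors, 2 netrins, 1 netrin receptor and 3 antisense transcripts of Plxna4. The rule uses symbols and no measured value, but the families were picked with earlier results of these data known.

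The study followed where blood-brain-barrier-crossing antibodies go in the mouse brain. Antibodies carrying the fluorophore Alexa647 were injected intravenously at 45 mg/kg, and brains without olfactory bulbs, cerebellum, pons and medulla were collected 24 hours later from mice labelled as 3.3 months old, which the series text gives as 12 weeks. The ATV-TfR group was of the genotype TfR mu/hu KI and received DNP02_hIgG1_LALAPG_ATV35.23.2 - Alexa647, which binds the transferrin receptor. The ATV-CD98hc group was CD98hc mu/hu KI and received DNP02 LALAPG LLB2-10-8 monovalent - Alexa647, and the control IgG group was C57BL/6 and received DNP02_hIgG1_LALAPG_Alexa647, which has no such transport arm. All mice were therefore dosed, all antibodies carried Alexa647 and the LALAPG Fc, and there was no undosed group. Genotype and antibody changed together, so they cannot be told apart. Dissociation was done with Actinomycin D and Anisomycin, inhibitors of transcription and translation. Live cells of 1 male and 1 female were pooled and sorted by Alexa647 into a negative, low, medium and high bin, with 2 pools per group, and the gates of the positive bins were set on ATV-TfR cells. Control IgG had 1 negative library, so 23 libraries were analysed.

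Semaphorins are secreted or membrane-bound ligands whose receptors are the plexins, and most secreted class 3 semaphorins bind through a neuropilin. Ephrins are membrane ligands of the Eph receptor tyrosine kinases, and Slits and netrins are secreted ligands of the Robo and of the Dcc and Unc5 receptors. In vessels, ephrin-B2 is a classical arterial and EphB4 a classical venous marker, Nrp1 and Nrp2 are also co-receptors for vascular endothelial growth factor, and Robo4 and Unc5b are receptors of endothelial cells.

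The start regions of 4 members are shown as examples of genes that differed between segments or bins. Among the endothelial segments, Sema3g and Unc5b were highest in arterial-like and Nrp2 in venous-like cells. Over all cell classes Unc5b was highest in oligodendrocyte-like cells. Sema3c rose from the negative to the high bin over all endothelial-like cells under ATV-TfR. Each window runs from 250 bases before to 50 bases after the gene start in RefSeq on GRCm38.p6, 5′ to 3′ on the gene's strand, and capitals mark a match to 1 of 2 short motif cores, TGGGAA (the core bound by the Notch effector RBPJ) or ACAAT (a core bound by SOX factors), searched on both strands. The windows are chr14:31217623-31217922 (plus strand) for Sema3g, chr10:60831532-60831831 (minus strand) for Unc5b, chr1:62703067-62703366 (plus strand) for Nrp2 and chr5:17574566-17574865 (plus strand) for Sema3c.
Sema3g: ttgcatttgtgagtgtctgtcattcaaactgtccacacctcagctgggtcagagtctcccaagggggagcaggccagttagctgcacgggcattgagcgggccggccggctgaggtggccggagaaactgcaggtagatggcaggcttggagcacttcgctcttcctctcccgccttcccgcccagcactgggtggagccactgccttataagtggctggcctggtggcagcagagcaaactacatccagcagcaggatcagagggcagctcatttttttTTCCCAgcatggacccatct
Unc5b: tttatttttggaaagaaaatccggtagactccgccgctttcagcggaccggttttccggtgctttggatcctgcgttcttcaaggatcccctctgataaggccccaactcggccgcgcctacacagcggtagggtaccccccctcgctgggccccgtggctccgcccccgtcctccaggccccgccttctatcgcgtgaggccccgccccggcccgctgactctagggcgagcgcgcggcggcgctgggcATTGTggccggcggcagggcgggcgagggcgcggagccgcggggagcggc
Nrp2: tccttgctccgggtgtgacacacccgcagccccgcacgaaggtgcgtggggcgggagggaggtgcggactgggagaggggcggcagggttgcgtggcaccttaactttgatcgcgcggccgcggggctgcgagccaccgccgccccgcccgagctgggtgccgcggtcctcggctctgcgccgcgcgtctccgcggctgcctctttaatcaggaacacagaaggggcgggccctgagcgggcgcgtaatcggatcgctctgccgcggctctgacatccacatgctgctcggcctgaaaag
Sema3c: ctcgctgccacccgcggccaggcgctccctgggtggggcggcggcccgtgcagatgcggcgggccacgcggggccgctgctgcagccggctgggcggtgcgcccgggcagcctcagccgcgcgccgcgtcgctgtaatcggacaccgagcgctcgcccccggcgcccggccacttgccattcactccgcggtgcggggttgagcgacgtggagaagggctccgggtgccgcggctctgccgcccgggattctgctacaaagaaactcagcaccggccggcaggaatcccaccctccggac
The Sema3g window holds TGGGAA on the opposite strand (printed as TTCCCA) from base 31 after the start, and the Unc5b window holds ACAAT on the opposite strand (printed as ATTGT) from base 1. The other 2 windows hold neither core. These short cores are common: TGGGAA is in 25.6% and ACAAT in 31% of the 32851 promoter windows of this length, and in 22.9% and 20% of the 70 windows of members (54 of 65 member symbols have at least 1), so a match describes letters and no binding site.

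The 23 libraries held 265025 barcodes and between 1861238 and 90307818 unique molecular identifiers (UMIs, counted molecules). After filters, 235249 cells were kept, and 22 of 28 clusters could be named by fixed markers, giving 97940 endothelial-like, 92689 astrocyte-like, 11105 microglia-like, 7465 oligodendrocyte-like, 6696 pericyte-like, 4510 choroid plexus epithelial-like, 3179 border macrophage-like, 2546 fibroblast-like, 2240 smooth muscle-like and 865 ependymal-like cells. The members were kept out of the genes used for clustering. In each class 11 or 12 of its 12 markers were highest there, but the pericyte-like class also held endothelial markers, so values of endothelial genes in it are mixed. Kept barcodes shared by any pair of libraries were at most 1.16% of the smaller one, and 34 to 1131 kept barcodes of a library recurred in at least 1 of the others (36 of 518 in the smallest library). Levels are CPM, the UMIs of a gene scaled to a common total of all UMIs of a class in a library (1000000), and compare the same gene between cells, not genes with each other. CPM cannot tell fewer expressing cells from less RNA per cell.

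Of the 65 members, 49 reached 20 CPM in at least 1 class and 16 did not, among them Slit1, Epha8, Ephb2, Efna3 and Plxna3. The highest class was endothelial-like for 11 of the 49, astrocyte-like for 8, fibroblast-like for 7, oligodendrocyte-like for 6, microglia-like for 5, smooth muscle-like for 4, ependymal-like for 3, border macrophage-like and pericyte-like for 2 each and choroid plexus epithelial-like for 1. These levels are a description with no test, and the share of all genes highest in each class is not given here. They are sums over bins, and the classes came from different bins. In the negative bins alone, 41 of the 49 kept their highest class and 8 did not (Efna5, Nrp1, Nrp2, Plxna1, Plxnb2, Robo1, Sema3f and Sema5a).

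Among ligands in endothelial-like cells, Sema3c, a secreted semaphorin, averaged 792 ± 174 CPM (SD, n = 6 pools, 581 to 1079), which was 2.44 times its level in the next class, the pericyte-like cells. The membrane-anchored Sema7a averaged 294 ± 40 CPM (249 to 354) and was 2.48 times the next class, again the pericyte-like cells. Efna1, an ephrin-A ligand, averaged 59.9 ± 2.55 CPM and was 2.29 times the next class. Every endothelial-like pool was above every pool of the next class for these 3 ligands. Sema3g averaged 49 ± 19.2 CPM, and its pools, from 13.1 to 62.2, overlapped those of the next class.

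Among receptors in endothelial-like cells, Robo4 averaged 179 ± 7.75 CPM (173 to 189, n = 6 pools), 2.1 times the next class. The ephrin receptors Epha4 and Ephb4 averaged 132 ± 26.9 and 77.7 ± 9.98 CPM. Plxnd1, a receptor of Sema3e, averaged 86.2 ± 11 CPM. Sema3e itself was highest elsewhere and averaged 41.5 ± 9.78 CPM in ependymal-like cells, 7.05 times the next class.

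Astrocyte-like cells (n = 5 pools) were highest for Sema6d at 421 ± 22 CPM, Plxnb1 at 160 ± 16.1, Robo1 at 132 ± 8.69, Sema4a at 131 ± 7.59, Epha5 at 99 ± 9.39, Sema4b at 95.6 ± 6.03, Ephb3 at 52.9 ± 6.35 and Efna2 at 23.5 ± 2.37 CPM. Ephb3, an ephrin-B receptor, stood furthest above its next class, at 3.92 times the ependymal-like level, while the Robo1 and Efna2 pools overlapped those of the next class. Oligodendrocyte-like cells held the ephrin-B ligand Efnb3 at 483 ± 24 CPM, 21.2 times the fibroblast-like level of 22.8 CPM, and the plexin Plxnb3 at 138 ± 7.71 CPM, 19.5 times the next class. They were also highest for Ephb1 (282 ± 24.7 CPM), Unc5b (239 ± 11.7 CPM) and Sema4d (223 ± 10 CPM), a ligand of Plxnb1. Sema6a, at 350 ± 19.4 CPM there, overlapped the endothelial-like pools.

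Several secreted ligands were highest in mural cells or in the cells that line the ventricles and choroid plexus. Ntn4, a netrin, averaged 955 ± 136 CPM in smooth muscle-like cells (763 to 1102, n = 5 pools), 20.8 times the next class, and Slit3 averaged 156 ± 19.1 CPM there, 17.6 times the next class. Slit2 averaged 634 ± 119 CPM in ependymal-like cells (510 to 817, n = 5 pools), 8.93 times the 71 CPM of choroid plexus epithelial-like cells. Ntn1 averaged 200 ± 25.9 CPM in pericyte-like cells, 5.48 times the next class, and Sema3b averaged 93.2 ± 16.4 CPM in choroid plexus epithelial-like cells, 10.7 times the next class. For these 5 ligands no pool of the highest class fell within the next class. Nrp1 was highest in border macrophage-like cells, at 585 ± 68.6 CPM (516 to 688, n = 6 pools), 1.83 times the fibroblast-like level. In the negative bins alone the order was another, with Nrp1 at 557 ± 254 CPM in endothelial-like (n = 5 libraries) and 399 ± 50.4 CPM in border macrophage-like cells (n = 3 libraries). Fibroblast-like cells were highest for Efnb1 (124 ± 24.5 CPM, 4.04 times the next class) and Efna5 (192 ± 73.4 CPM), and microglia-like cells for Plxna4 (316 ± 92.5 CPM). The Efna5 level was 1.03 times the ependymal-like one and the Plxna4 level 1.46 times the border macrophage-like one, and for both the pools of these classes overlapped. Plxna4os1, antisense to Plxna4, was also highest in microglia-like cells, and without a stated strand its reads and those of Plxna4 cannot be told apart.

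**Figure D1:**
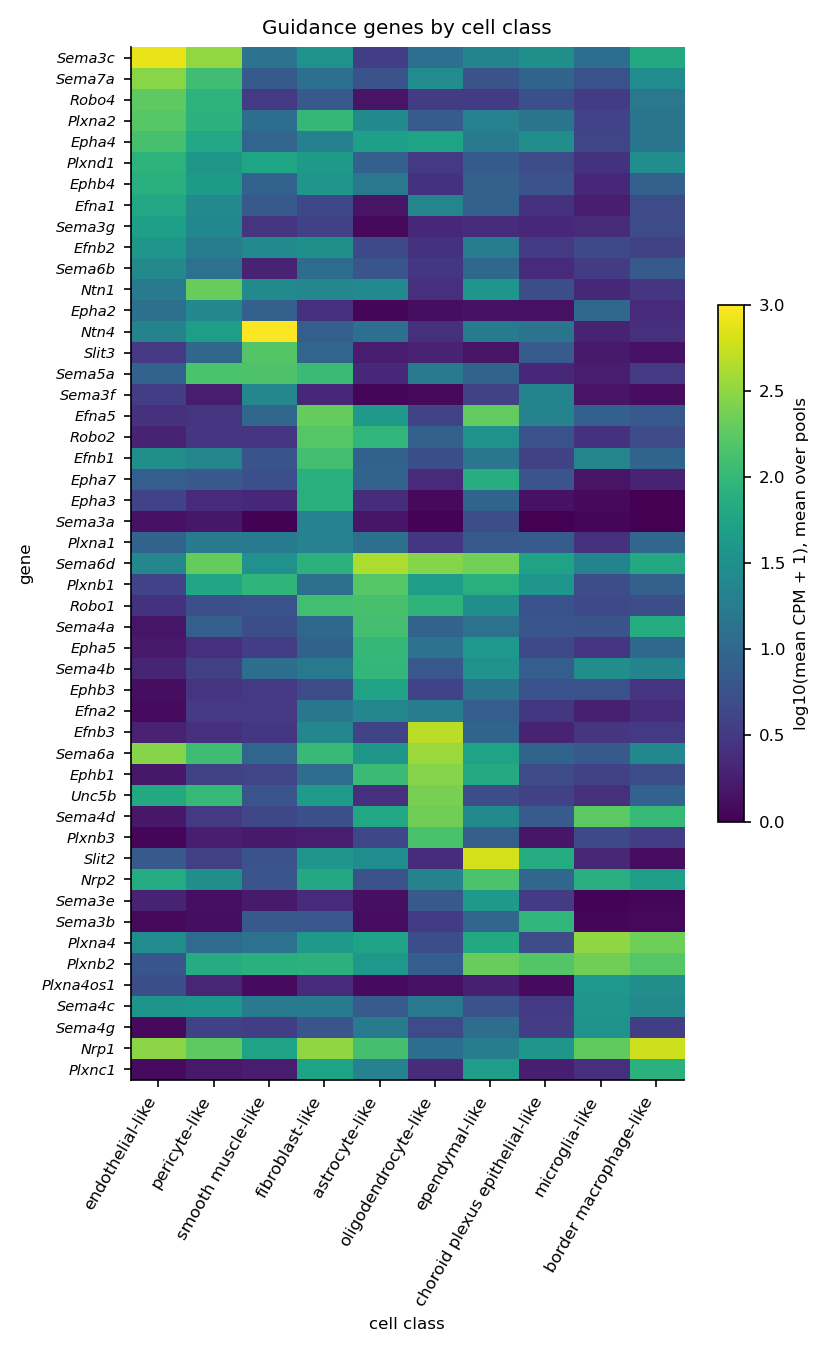
Mean level of the 49 guidance genes that reached 20 CPM in a class (rows, grouped by their highest class) in the 10 cell classes (columns). Colour is log10(mean CPM + 1) over pools. Sema3c is brightest in endothelial-like, Ntn4 in smooth muscle-like, Slit2 in ependymal-like and Efnb3 in oligodendrocyte-like cells.

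The endothelial-like cells were split into 12845 arterial-like, 84159 capillary-like, 632 venous-like and 304 fenestrated-like cells by fixed markers, with the members again kept out of the clustering. The arterial-like class depended on the clustering. It held 13369 cells with at least 1200 UMIs a cell, but 1879 at Leiden resolution 2. There, clusters of 9995 and 1843 cells, best matched by the capillary list, stayed unnamed. Tests in arterial-like cells alone used the first split only. Arterial-like cells (n = 6 pools) held the most Sema3g, a secreted semaphorin, at 219 ± 23.3 CPM (195 to 254), against 28.4 ± 12 in capillary-like, 4.98 ± 2.43 in venous-like and 55.1 ± 21.2 CPM in fenestrated-like cells. The netrin receptor gene Unc5b was also highest there, with 182 ± 32.6 CPM in arterial-like, 53.3 ± 21.3 in capillary-like, 46.5 ± 7.46 in fenestrated-like and 5.79 ± 5 CPM in venous-like cells. For both genes the arterial-like pools lay above all pools of the other segments, while the capillary-like and fenestrated-like levels of Unc5b differed by less than their spread.

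For the pair of ephrin-B2 and its receptor EphB4, the arterial and venous order was seen, with fenestrated-like cells above it. Efnb2 was at 108 ± 24.7 CPM in arterial-like, 29.8 ± 11.3 in capillary-like and 13.7 ± 6.8 in venous-like cells, but was highest in fenestrated-like cells at 194 ± 33.3 CPM. Ephb4 was at 155 ± 17.3 CPM in venous-like cells against 70.6 ± 8.76 in arterial-like and 75.9 ± 7.57 in capillary-like cells, whose levels differed by less than their spread. Fenestrated-like cells, at 191 ± 44.7 CPM, overlapped the venous-like pools.

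The neuropilins separated the other 2 segments. Nrp2 was at 469 ± 71.8 CPM in venous-like cells (379 to 593, n = 6 pools), 294 ± 84.3 in fenestrated-like cells (163 to 361, n = 5 pools), 62.6 ± 29.3 in capillary-like and 16.6 ± 9.75 CPM in arterial-like cells. Nrp1 was at 2356 ± 204 CPM in fenestrated-like cells (2055 to 2625), and at 310 ± 58.3, 167 ± 19.2 and 124 ± 18.5 CPM in capillary-like, arterial-like and venous-like cells. No fenestrated-like pool of Nrp1 and no venous-like pool of Nrp2 was within the range of another segment.

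Of the 27 members at 20 CPM or more in a segment, 16 were highest in fenestrated-like cells, the smallest segment, 7 in venous-like, 2 in arterial-like and 2 in capillary-like cells. In control pools alone the arterial-like count was 4 and the capillary-like count 1, and in negative bins alone they were 5 and 4. The share of all genes highest in each segment is not given here, so these counts cannot be read as a trait of the members. Levels in fenestrated-like cells rest on few UMIs, such as 0 to 3 of Sema5a in a library. The fenestrated-like set included Slit3 at 62.2 ± 23.4 CPM, Sema3f at 179 ± 21, Plxnd1 at 286 ± 62 and Robo4 at 362 ± 72.3 CPM, whereas Slit3 averaged 1.88 and Sema3f 0.516 CPM in capillary-like cells. Ntn1 was highest in venous-like cells at 57.7 ± 5.34 CPM. Slit2 was low in each segment, with its highest mean at 31.3 ± 13.7 CPM in venous-like cells. The 2 members highest in capillary-like cells were Sema3c (817 ± 180 CPM) and Sema7a, and the arterial-like Sema3c level of 696 ± 112 CPM overlapped the capillary-like one.

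**Figure D2:**
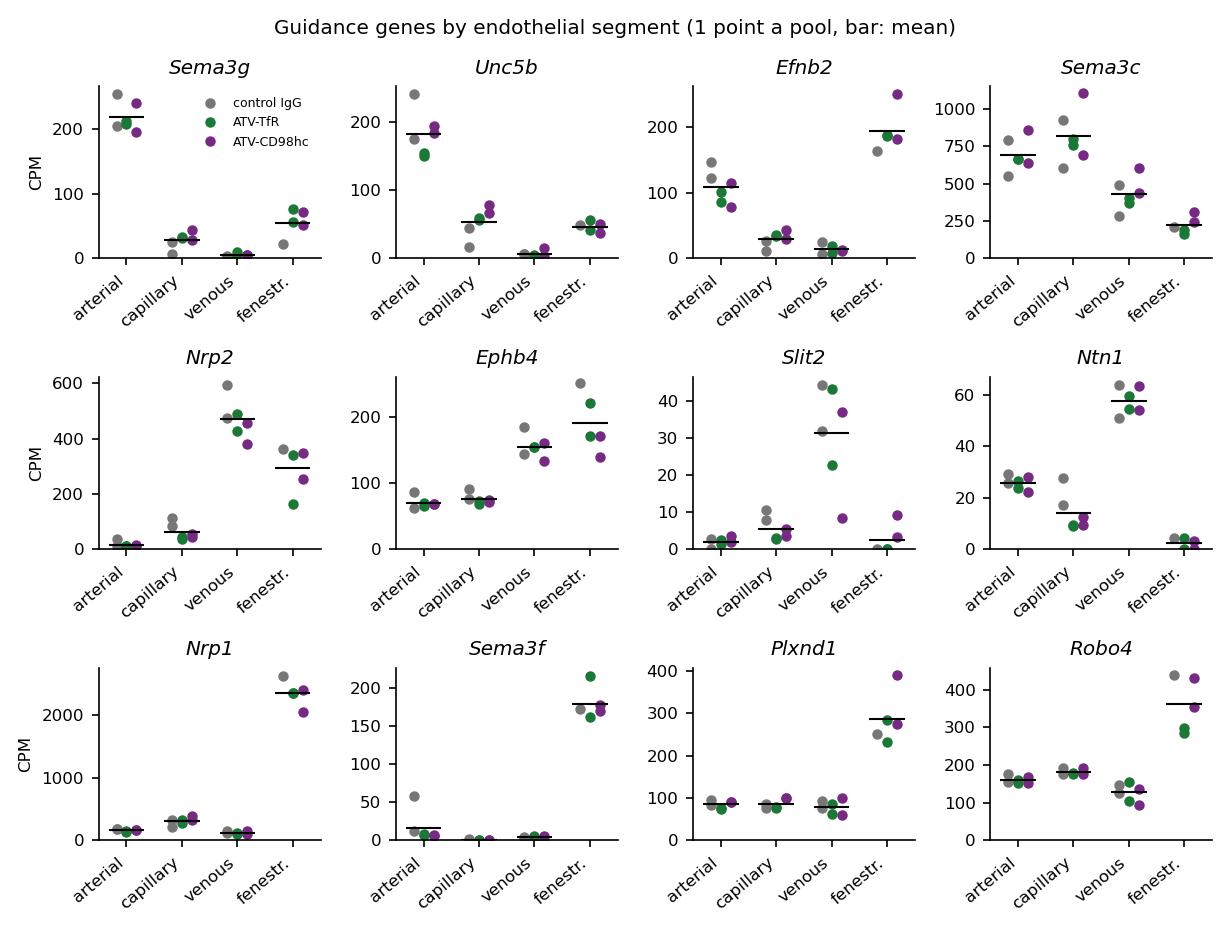
Level in CPM (y axis, linear from 0) of 12 guidance genes in arterial-like, capillary-like, venous-like and fenestrated-like cells (x axis). Each point is a pool with at least 20 cells, coloured by antibody, and the bar is the mean. Sema3g and Unc5b points are highest in arterial-like cells, Nrp2 in venous-like and Nrp1 and Sema3f in fenestrated-like cells.

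The next comparisons asked how endothelial-like cells with much antibody differed from those without, within an antibody group, over libraries. Segment make-up moved with the bins. Arterial-like cells were 45.2% and 51.8% of endothelial-like cells in the ATV-TfR negative libraries and 11.2% and 10.8% in the high ones, fenestrated-like cells were 37.9% and 31.3% in the negative libraries and 0 of 16578 and 0 of 15411 cells in the high ones (which allows up to 0.0181% and 0.0195%, counting error only), and capillary-like cells were 16.1% and 14.5% in the negative and 88.6% and 89.1% in the high ones. In ATV-CD98hc mice, arterial-like cells were 57.5% and 49.1% in the negative and 6.59% and 9.29% in the high libraries. The negative libraries also held few endothelial-like cells, 124 and 83 for ATV-TfR and 80 and 57 for ATV-CD98hc, against 8966 to 16578 in the high libraries. The control IgG negative library, with 2507 endothelial-like cells, held 14.5% arterial-like, 84.2% capillary-like and 0.758% fenestrated-like cells. Control IgG high libraries, with 10 and 14 endothelial-like cells, were not used.

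In ATV-TfR mice, 16 of the 54 members tested differed from negative to high in edgeR's quasi-likelihood test at an adjusted p under 0.05, 1 higher and 15 lower (29.6% of members, beside 10.0% of all 15524 genes tested, of which 3.32% were higher and 6.70% lower). The median log2 difference was -0.70 for the members tested and 0.14 for all genes. Part of these calls was lost with either ATV-TfR pool left out, which leaves 1 library in each group compared. Sema6d, Efnb2, Efna1, Efnb1 and Ephb1 lost theirs in both of these fits.

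The gene that rose was Sema3c (chr5:17574281-17730268, plus strand). It was at 238 and 250.3 CPM in the ATV-TfR negative libraries, 357 and 301 in the low, 752 and 702 in the medium and 788.5 and 754 CPM in the high libraries. Both negative and both low libraries were below both medium and both high ones, and high exceeded negative by 1.87 on the log2 scale (SE 0.25, adjusted p = 7.93e-06). The control IgG negative library was at 962 CPM, above both high libraries of ATV-TfR mice. Within capillary-like cells alone, given below, this order of the bins was not seen.

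Among the ligands that fell, Sema3f, which signals through Nrp2, was at 73 and 124 CPM in the negative libraries, 38.4 and 57.9 in the low, 3.94 and 5.81 in the medium and 0.612 and 0.491 CPM in the high libraries of ATV-TfR mice. Efna5, an ephrin-A ligand, was at 54.3 and 56.3 CPM in the negative and at 1.01 and 0.721 CPM in the high libraries. Neither gene's groups overlapped, and the log2 difference was -7.23 (SE 0.41, adjusted p = 8.39e-12) for Sema3f and -5.78 (SE 0.37, adjusted p = 6.52e-11) for Efna5. The arterial ligand Sema3g was at 176 and 270 CPM in the negative, 268 and 274 in the low, 133 and 149 in the medium and 50.2 and 49.6 CPM in the high libraries (log2 difference between high and negative -1.93, SE 0.23, adjusted p = 1.8e-06). Its level in the medium and high bins was below every negative library of ATV-TfR mice. In the control IgG negative library Sema3f was at 3.42, Efna5 at 3.63, Sema3g at 73 and Ntn1 at 12.6 CPM. The secreted ligands Ntn1, Ntn4 and Slit3 fell by 2.34, 1.85 and 3.09 on the log2 scale, and the ephrins Efnb2, Efna1 and Efnb1 fell by 1.28, 0.82 and 0.74. The transmembrane ligand Sema6d fell by 1.89.

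Among the receptors, Nrp1 (chr8:128358604-128503363, plus strand) was at 895 and 762.2 CPM in the ATV-TfR negative libraries, 354.5 and 415 in the low, 213.5 and 178.5 in the medium and 299 and 259 CPM in the high libraries. The high libraries were below the negative ones (log2 difference -1.37, SE 0.20, adjusted p = 2.95e-05) and above the medium ones. Nrp1 was at 332 CPM in the control IgG negative library. Nrp2 was at 152 and 95.6 CPM in the negative and 41.4 and 34.8 CPM in the high libraries (log2 difference -1.53, SE 0.23, adjusted p = 5.77e-05). Plxnb2 and Epha3 fell by 2.22 and 2.42 on the log2 scale, and Ephb1 passed the test on 2 UMIs in each negative library. Robo4, at 157 and 174 CPM in the negative and 175 and 179 CPM in the high libraries, did not pass the test, nor did Unc5b or Ephb4.

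**Figure D3:**
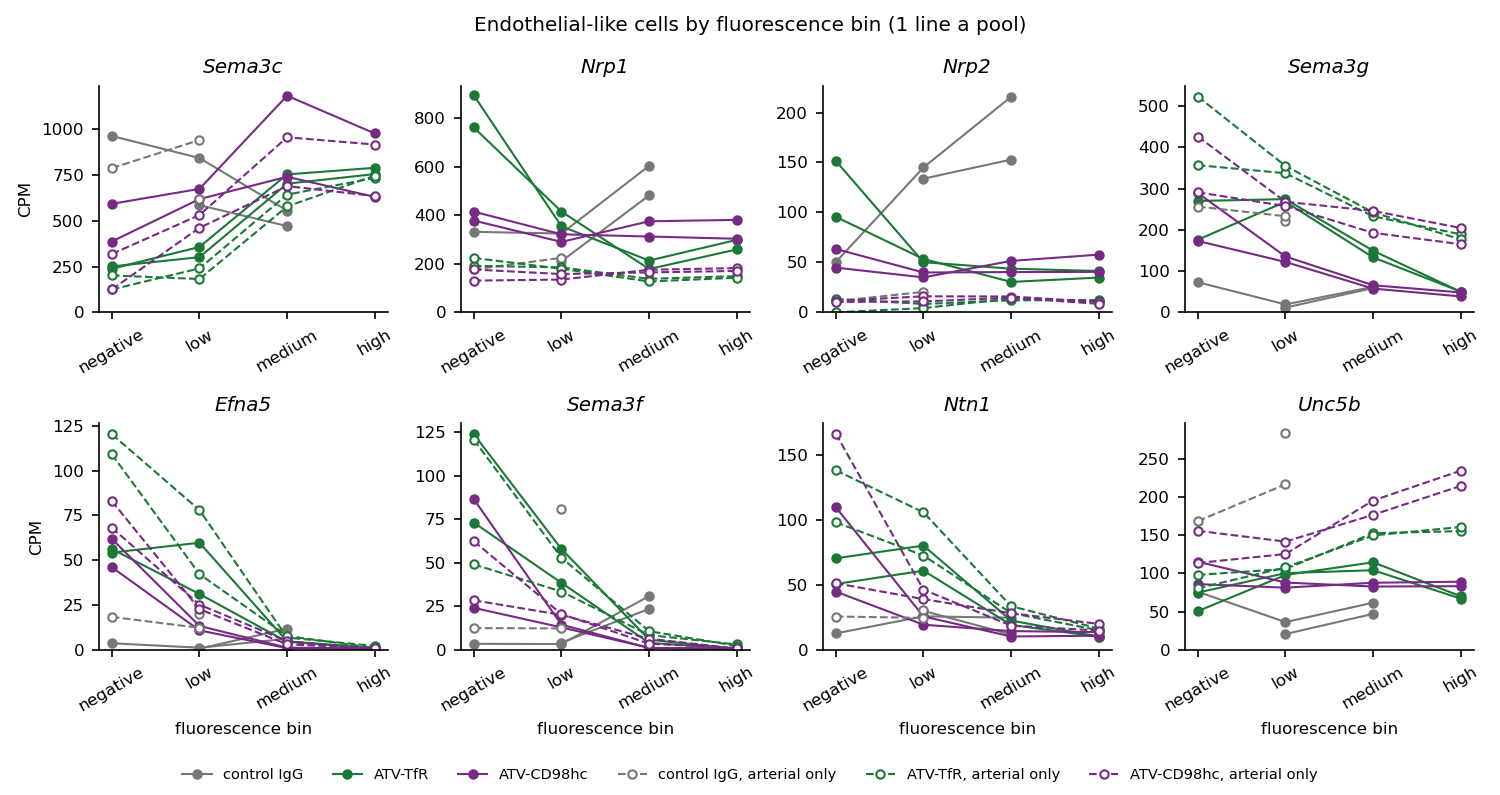
Level in CPM (y axis, linear from 0) of 8 guidance genes by fluorescence bin (x axis). Solid lines are all endothelial-like cells and dashed lines with open points arterial-like cells, with 1 line a pool, coloured by antibody. In ATV-TfR mice Sema3c goes from 238 and 250.3 CPM in the negative to 788.5 and 754 CPM in the high bin, while Sema3g, Efna5, Sema3f and Ntn1 go down.

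Marker levels of endothelial segments and of other cell types moved along with these changes. The lists share genes: Mgp is in both the fibroblast and the arterial list, and Clu in both the astrocyte and the arterial list. In the endothelial-like libraries of ATV-TfR mice, the summed fenestrated list was at 4011 to 5066 CPM in the negative and 97.3 to 105 CPM in the high bin, the fibroblast list at 1363 to 1884 (2 of 12 markers at 0) and 68.5 to 68.7 CPM, the arterial list at 4332 to 5251 and 806 to 823 CPM, and the astrocyte list at 644 to 1027 and 102 to 104 CPM. Their part in the result over all endothelial-like cells was not tested, but the same comparison was made, after the data had been seen, in arterial-like cells alone.

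In arterial-like cells of ATV-TfR mice, 11 members differed between high and negative (beside 6.13% of all genes tested there), and Sema3c, Efna5, Sema3f, Ntn1, Sema3g and Ntn4 were called again. Sema3c was at 125 and 201 CPM in the negative, 239.7 and 182 in the low, 642 and 578 in the medium and 733 and 746 CPM in the high libraries, with no overlap between the 2 lower and the 2 upper bins (log2 difference between high and negative 2.31, SE 0.30, adjusted p = 1.21e-06). The negative libraries held 56 and 43 arterial-like cells, with 28 and 35 UMIs of Sema3c. In the control IgG negative library, with 363 arterial-like cells, Sema3c was at 787 CPM. Sema3g was at 357 and 523 CPM in the negative and 189 and 177 CPM in the high arterial-like cells (log2 difference -1.15, adjusted p = 0.000254). Efna5 was at 120.4 and 109 CPM against 2.14 and 1.04 CPM. In these cells the receptors Unc5b and Robo4 also rose, by 0.92 (adjusted p = 0.0168) and 0.91 (adjusted p = 0.0364) on the log2 scale. Unc5b had 22 and 14 UMIs and Robo4 15 and 23 in the negative arterial-like libraries. Nrp1 (log2 difference -0.40, adjusted p = 0.34) and Efnb2 (-0.30, adjusted p = 0.67) were no longer called. Nrp2 had 3 and 0 UMIs in the negative arterial-like libraries, so no direction could be read. In these arterial endothelial-like cells the fibroblast list summed to 3166 to 3616 CPM (4 of 12 markers at 0) in the negative and 118 to 129 CPM in the high bin, and the pericyte list to 132 to 201 and 766 to 798 CPM. Mgp, a gene of the fibroblast list, is also in the arterial list. The part of the fibroblast and pericyte lists was not tested. In capillary-like cells alone the 1 ATV-TfR negative library that could be used held 20 cells, with 0 UMIs of Sema3f, 0 of Slit3 and 4 of Sema3g. There edgeR called none of 50 members and no other gene (3 members at an unadjusted p under 0.05), and at this depth neither the presence nor the direction of a change could be read for these 3 genes. Nrp1, with 42 UMIs, was at 333.9 CPM in that library and 320 and 275.3 CPM in the high libraries. Sema3c, with 70 UMIs, was at 556.5 CPM in that library. Its capillary-like levels were 987.4 and 907.9 CPM in the low, 865.7 and 848.4 in the medium and 797.8 and 755.9 CPM in the high libraries. Both low libraries thus lay above both high ones.

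From the medium to the high bin of ATV-TfR mice, 17 members differed, 1 higher and 16 lower (31.5%, beside 7.98% of all genes, 0.850% higher and 7.13% lower). Several genes that were highest in astrocyte-like cells were among those that fell. Sema4a was at 1.82 and 3.36 CPM in the medium and 0.209 and 0.123 CPM in the high endothelial-like libraries, Epha5 at 3.34 and 3.82 against 0.579 and 0.368, Robo1 at 5.76 and 6.57 against 0.933 and 0.997, and Sema4b at 4.55 and 4.28 against 0.821 and 0.859 CPM. Ephb3 and Plxnb1, also highest in astrocyte-like cells, fell by 3.70 and 1.55 on the log2 scale. The astrocyte marker list moved the same way, from 620 to 822 CPM in the medium to 102 to 104 CPM in the high endothelial-like libraries, and its part in these values was not tested. Sema3f, Efna5, Sema3g and Ntn1 fell again, by 3.00, 2.26, 1.37 and 0.90 on the log2 scale. Nrp1 rose by 0.65 (SE 0.19, adjusted p = 0.0393), a call that was lost with another scaling of the libraries (0.54, adjusted p = 0.12) and in DESeq2 (adjusted p = 0.069). Without ATV-TfR pool 1 part of these calls was lost, and without pool 2 only Sema3f, Efna5 and Robo1 kept theirs.

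In ATV-CD98hc mice, 6 of 54 members differed when high was set against negative, 2 higher and 4 lower (11.1%, beside 5.21% of all genes, 1.57% higher and 3.64% lower). The median log2 difference was -0.01 for the members and 0.19 for all genes. The 4 that fell had also fallen under ATV-TfR. Efna5 was at 61.9 and 46.1 CPM in the negative and 0.73 and 0.504 CPM in the high libraries (log2 difference -6.33, SE 0.48, adjusted p = 2.94e-09). Sema3f was at 24.1 and 86.5 against 0.681 and 0.357 CPM (log2 difference -6.41, SE 0.61, adjusted p = 1.35e-07). Sema3g was at 289 and 173 CPM in the negative, 135 and 122 in the low, 65.7 and 57.5 in the medium and 48.2 and 38.5 CPM in the high libraries, with no overlap between negative and high (log2 difference -2.30, SE 0.25, adjusted p = 9.97e-07). Ntn1 was at 44.7 and 109.6 against 13.5 and 10.9 CPM (log2 difference -2.38, SE 0.37, adjusted p = 0.000154), and without ATV-CD98hc pool 2 its adjusted p was 0.054.

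Sema3c was at 592 and 386 CPM in the negative, 674 and 618 in the low, 1182 and 739.6 in the medium and 976 and 629.7 CPM in the high libraries of ATV-CD98hc mice. Both high libraries were above both negative ones, but pool 1 was above pool 2 in each bin. The log2 difference was 0.85 (SE 0.24, adjusted p = 0.0423), and Ephb4, the ephrin-B2 receptor, differed by 1.04 (SE 0.28, adjusted p = 0.0267). Both calls were lost with any 1 ATV-CD98hc or ATV-TfR pool left out, under DESeq2 (adjusted p = 0.10 and 0.13), with median-ratio scaling (0.14 and 0.088) and at resolution 2 (0.068 and 0.051), and that of Ephb4 also with doublets kept (0.052). A minimum of 1200 UMIs a cell, a stricter low-count filter and leaving out control IgG pool 2 each ended 1 call of this comparison. With the pool as a block, 11 members were called (beside 7.88% of all genes), adding Ntn4, Sema6a, Sema6d, Efnb2 and Robo4, and DESeq2 called 11 (beside 9.62%). The fibroblast list was at 730 to 1286 CPM (7 of 12 markers at 0) in the negative and 72 to 78.1 CPM in the high endothelial-like libraries, and its part was not tested.

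In arterial-like cells of ATV-CD98hc mice, chosen after seeing the data, 6 members differed (beside 3.48% of all genes): Efna5, Sema3f, Ntn1 and Sema3g were lower, and Sema3c and Unc5b higher. Sema3c was at 318 and 125 CPM in the negative, 531 and 461 in the low, 955 and 689 in the medium and 915.5 and 634 CPM in the high arterial-like cells, and the high libraries lay above both negative and both low ones (log2 difference between high and negative 1.81, SE 0.30, adjusted p = 0.000106). Unc5b was at 114 and 156 CPM in the negative and 235 and 215 CPM in the high arterial-like cells (log2 difference 0.92, adjusted p = 0.0294). The negative libraries held 46 and 28 arterial-like cells, with 56 and 12 UMIs of Sema3c and 20 and 15 of Unc5b. In capillary-like cells the Sema3c order was not seen, with 1181 and 914 CPM in the negative and 983 and 630.2 CPM in the high libraries of ATV-CD98hc mice (log2 difference -0.19). Those negative libraries held 27 and 21 capillary-like cells, with 109 and 52 UMIs of Sema3c.

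Between the medium and the high bin of ATV-CD98hc mice, 3 of 54 members differed, all lower (beside 2.45% of all genes, 0.0193% higher and 2.43% lower). Sema4a fell by 2.39 and Epha5 by 1.84 on the log2 scale, and Ephb1 went from 26 and 31 UMIs in the medium to 1 and 1 UMI in the high libraries. With the pool as a block 11 members were called (beside 6.66% of all genes) and in DESeq2 5 (beside 2.97%), and without ATV-CD98hc pool 2 edgeR called none. Without pool 1 Ephb1 kept its call, and Sema4a and Epha5 did not. The astrocyte list was at 160 to 203 CPM in the medium and 74.2 to 78.2 CPM in the high endothelial-like libraries.

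The difference between the antibodies in the change from negative to high was tested directly. None of the 54 members passed in edgeR (0.0193% of all genes did), 9 had an unadjusted p under 0.05 (5.58% of all genes), and DESeq2 called 1, Nrp1 (0.148% of all genes). The Nrp1 change was lower under ATV-TfR than under ATV-CD98hc by 1.32 on the log2 scale (SE 0.29, adjusted p = 0.239 in edgeR and 0.00722 in DESeq2). With the pool as a block 4 members were called (beside 0.676% of all genes): Nrp1 (adjusted p = 8.47e-06), Nrp2 (0.00382), Sema3c (0.00388) and Ephb4 (0.0492). Without ATV-CD98hc pool 2, 3 members were called (beside 0.305% of all genes). Fenestrated-like cells, the segment highest for Nrp1, were 37.9% and 31.3% of the negative endothelial-like cells under ATV-TfR and 8.75% and 14% under ATV-CD98hc, and their part in the difference was not tested.

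Comparing the antibody groups over whole pools of endothelial-like cells, bins summed, edgeR called none of 58 members for ATV-TfR against control IgG, ATV-CD98hc against control IgG or ATV-TfR against ATV-CD98hc (0% of all 16557 genes in each). The summed pools held different bins: control IgG pool 1 had 1040 low, 27 medium and 10 high endothelial-like cells, control IgG pool 2 had 2507 negative and 2322 low ones, and the ATV-TfR pools had 16578 and 15411 in the high bin. Antibody and bin therefore cannot be told apart here. In the medium and high bins alone, edgeR called 2 of 56 members in each comparison with control IgG, Nrp2 and Sema3f, both lower (beside 0.751% of all genes for ATV-TfR and 0.714% for ATV-CD98hc), and the control IgG libraries of these bins held 10 to 42 endothelial-like cells. Over the whole pools, 14, 11 and 1 of the 58 members had an unadjusted p under 0.05 in edgeR (7.37%, 4.62% and 2.25% of all genes), and DESeq2 called 3, 4 and 0 (1.16%, 0.562% and 0.0483% of all genes). The DESeq2 calls were Nrp2, Slit2 and Ntn1 for ATV-TfR, and Nrp2, Sema3f, Slit2 and Unc5b for ATV-CD98hc. Nrp2 was lower than in control IgG by 1.55 under ATV-TfR (SE 0.21, adjusted p = 0.179) and by 1.33 under ATV-CD98hc (adjusted p = 0.259) on the log2 scale in edgeR. Its levels were 50.3 CPM in the control IgG negative library, 134 and 145 in the low and 153 and 216 CPM in the medium libraries, so the control IgG low and medium libraries lay above all low, medium and high libraries of both transported antibodies. Within capillary-like cells Nrp2 was at 112.5 and 107.4 CPM in the control IgG low libraries. The low, medium and high capillary-like libraries of both transported antibodies were at 37.2 to 58.1 CPM. In capillary-like pools edgeR called none of 56 members for either comparison with control IgG. Venous-like cells, the segment highest for Nrp2, were 6.83% and 7.11% of endothelial-like cells in the control IgG low libraries. The venous list summed to 1611 to 2227 CPM in those libraries and to 598 to 652 CPM in the ATV-TfR high ones, and its part was not tested. Without ATV-CD98hc pool 1, 2 members were called for ATV-TfR against control IgG, and without control IgG pool 2, 5 (beside 0.0938% and 0.553% of all genes), while for ATV-CD98hc against control IgG 3 were called without control IgG pool 2 (beside 0.477%). The 2 comparisons share the control pools.

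Astrocyte-like cells were compared between the medium and the negative bin. In ATV-CD98hc mice, 19 of 49 members differed, 14 higher and 5 lower (38.8%, beside 15.7% of all 16049 genes, 8.25% higher and 7.47% lower), with a median log2 difference of 0.25 for members and -0.01 for all genes. The libraries compared held 3559 and 1872 negative and 1260 and 1755 medium cells. Without ATV-CD98hc pool 1, Plxnd1, Sema7a, Sema4d, Sema4c, Efnb2, Efna1, Nrp2 and Robo2 lost their calls. Without pool 2, Plxnd1, Efnb2, Nrp2, Plxnb2 and Ntn1 lost theirs, and without either ATV-TfR pool Sema6d, Plxnb2 and Robo2 did.

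Among the ligands called in astrocyte-like cells was Slit2 (chr5:47983138-48307733, plus strand), which signals through Robo receptors. It was at 24.2 and 12.4 CPM in the negative, 27.9 and 25.9 in the low, 89.7 and 79.2 in the medium and 169 and 182 CPM in the high libraries of ATV-CD98hc mice. Medium and high libraries did not overlap with each other or with the lower bins, and medium exceeded negative by 2.16 on the log2 scale (SE 0.18, adjusted p = 5.94e-08). In ATV-TfR mice, Slit2 was at 19.3 and 14.5 CPM in the negative, 20.9 and 19.2 in the low, 23.3 and 24.4 in the medium and 22.3 and 34.3 CPM in the high libraries, and the control IgG negative library was at 27.6 CPM. The change under ATV-TfR was smaller than under ATV-CD98hc by 1.58 on the log2 scale (SE 0.27, adjusted p = 0.00107, a test added after seeing the data, which called 8 of 49 members beside 6.85% of all genes).

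**Figure D4:**
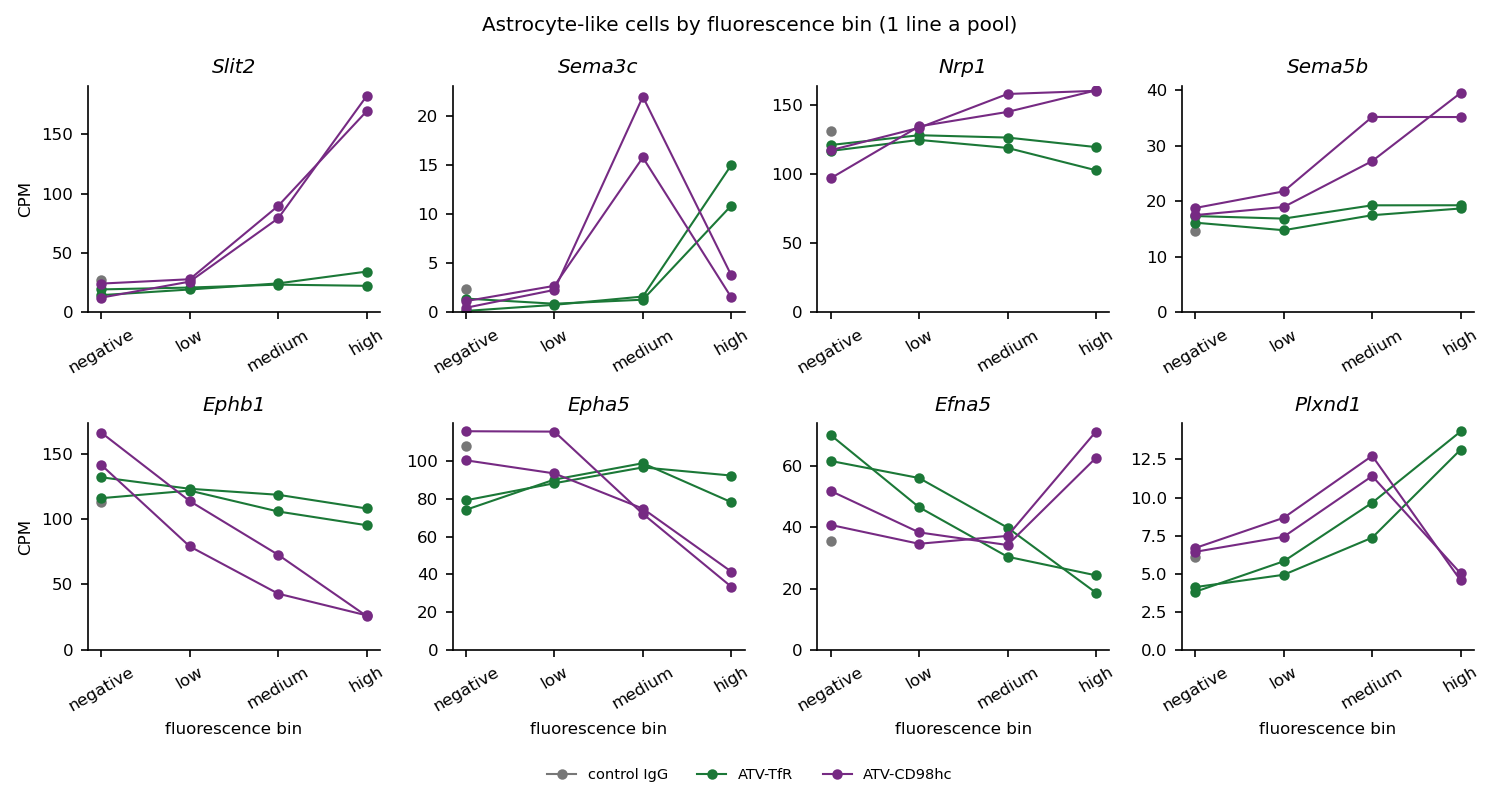
Level in CPM (y axis, linear from 0) of 8 guidance genes in astrocyte-like cells by fluorescence bin (x axis), with 1 line a pool, coloured by antibody. Slit2 goes up to 169 and 182 CPM in the high bin of ATV-CD98hc mice and is at or below 34.3 CPM over the whole class in ATV-TfR mice, and Ephb1 goes down to 26.4 and 25.8 CPM under ATV-CD98hc.

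The astrocyte-like class consisted of several clusters whose shares moved with the bins. In ATV-CD98hc mice the largest, cluster 3 with 34621 cells, went from 40.7% and 53.4% of astrocyte-like cells in the negative to 18.8% and 22.7% in the medium and 7.65% and 11.7% in the high libraries. Cluster 11, with 29880 cells, went from 28.9% and 22.8% to 46.6% and 38.2% and then 62.8% and 48.8%. Slit2 also differed within both: in cluster 11 it was at 44.2 and 38.4 CPM in the negative, 44.5 and 47.5 in the low, 118 and 123 in the medium and 161 and 191 CPM in the high libraries, and in cluster 3 at 8.77 and 5.1 CPM in the negative, 4.04 and 4.59 in the low, 17.8 and 14.8 in the medium and 10.6 CPM in the 1 high library (24 cells). In cluster 3 the low libraries were thus below the negative ones, and the high one below both medium ones. Within each cluster the medium libraries were above the negative ones, by 1.54 (SE 0.17, adjusted p = 1.91e-07) in cluster 11 and 1.23 (adjusted p = 0.0102) in cluster 3 on the log2 scale. Under ATV-TfR, Slit2 in cluster 11 was at 42.6 and 24.9 CPM in the negative, 42.3 and 52.7 in the medium and 38.1 and 80.7 CPM in the high libraries (medium against negative 0.57, adjusted p = 0.239), and in cluster 3 at 6.52 and 9.1 against 6.62 and 4.61 CPM (-0.43, adjusted p = 0.454). In cluster 13, which was not tested, it was at 46.2 and 19.4 CPM in the negative, 72.1 and 104 in the medium and 148 CPM in the 1 high library (35 cells) of ATV-TfR mice, against 86.4 and 13.9, 224 and 205, and 339 and 398 CPM under ATV-CD98hc. The difference between antibodies was called in cluster 3 (-1.67, adjusted p = 0.0419) and not in cluster 11 (-0.96, adjusted p = 0.205). The summed ependymal marker list, of the class highest for Slit2, was at 69.4 to 83.5 CPM in the negative, 89.4 to 97.4 in the medium and 150 to 161 CPM in the high astrocyte-like libraries of ATV-CD98hc mice, and its part in the result was not tested.

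**Figure D5:**
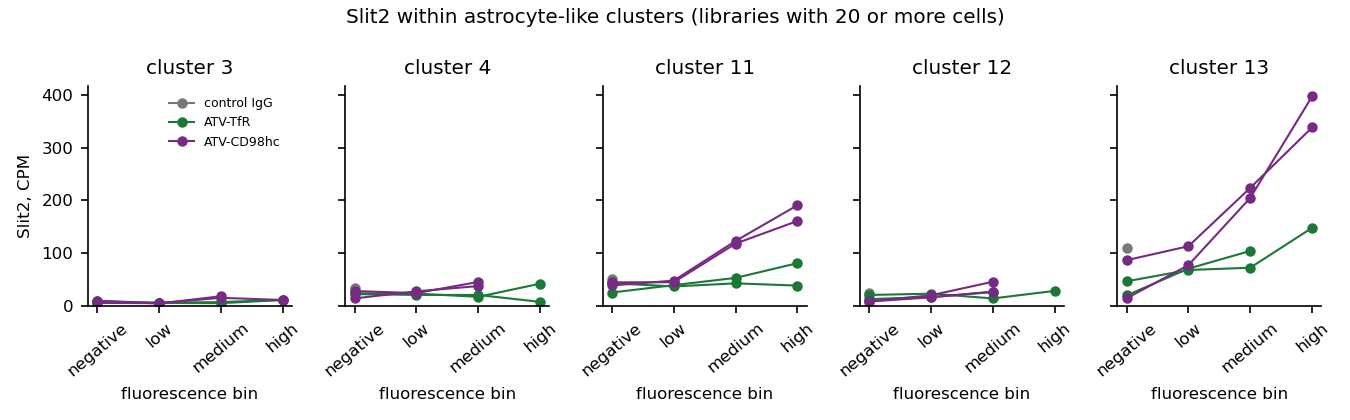
Slit2 level in CPM (y axis, linear from 0, shared) by fluorescence bin (x axis) within 5 astrocyte-like clusters, for libraries with at least 20 cells of the cluster. Each line is a pool, coloured by antibody. In clusters 11 and 13 the ATV-CD98hc medium and high points lie above the ATV-TfR ones.

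Sema3c, Robo4, Sema7a, Efna1 and Plxnd1, which were highest in endothelial-like cells, were also higher in the medium than in the negative astrocyte-like libraries of ATV-CD98hc mice. Sema3c was at 0.464 and 1.14 CPM in the negative and 21.9 and 15.8 CPM in the medium libraries (log2 difference 4.81, SE 0.38, adjusted p = 3.74e-08), and Robo4 had 1 and 2 UMIs in the negative and 25 and 30 UMIs in the medium libraries. The summed endothelial list in these astrocyte-like cells was at 28.1 to 28.7 CPM in the negative, 722 to 745 in the medium and 260 to 296 CPM in the high bin. The part of endothelial RNA in the values of these 5 genes was not tested.

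Receptors with a call in astrocyte-like cells of ATV-CD98hc mice included Ephb1, at 142 and 166 CPM in the negative, 79.2 and 114 in the low, 43 and 72.7 in the medium and 26.4 and 25.8 CPM in the high libraries (log2 difference between medium and negative -1.36, SE 0.18, adjusted p = 2.83e-05). Epha5 was at 100.4 and 116 CPM in the negative, 74.8 and 72 in the medium and 41.4 and 33.4 CPM in the high libraries (log2 difference -0.51, SE 0.11, adjusted p = 0.00353). For both, every medium and high library was below every negative one of ATV-CD98hc mice. The control IgG negative library was at 113 CPM for Ephb1 and 108 CPM for Epha5. Within cluster 11 alone neither was called, and Epha5 pointed the other way (0.23, adjusted p = 0.576), and in cluster 3 alone Epha5 was (-0.34, adjusted p = 0.049) and Ephb1 was not (-0.22, adjusted p = 0.39). Ephb1 was at 232 and 214 CPM in negative cells of cluster 3 and 3.78 and 8.87 CPM in negative cells of cluster 11, whose shares of the class moved as given above. In cluster 4 Ephb1 was at 247 and 363 CPM in the negative, 137 and 187 in the low and 90.1 and 73.1 CPM in the medium libraries, and Epha5 at 131 and 116 in the negative and 78.8 and 80 CPM in the medium libraries, with no overlap between negative and medium. In cluster 13 Epha5 was at 46.2 and 27.8 CPM in the negative and 93.5 and 77.3 CPM in the medium libraries. Clusters 4 and 13 were not tested.

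Of the members called over all astrocyte-like cells of ATV-CD98hc mice, 8 kept their call in cluster 3 and 5 in cluster 11. A further 9 and 8 kept only their direction, and 2 and 4 turned. Members not called over the class included, 11 of 47 were called in cluster 3 (23.4%, beside 10.3% of all genes) and 7 of 45 in cluster 11 (15.6%, beside 3.13%). The co-receptor Nrp1 was at 117.5 and 97.1 CPM in the negative and 158 and 145 CPM in the medium libraries (log2 difference 0.54, SE 0.10, adjusted p = 0.000651), but was not called in cluster 3 (0.04, adjusted p = 0.916) or cluster 11 (0.17, adjusted p = 0.523). In cluster 3 it was at 72.6 and 67.5 CPM in the negative and 73.1 and 63.5 CPM in the medium libraries. The receptor Plxna4 rose by 0.54 over the class and was called in neither cluster (0.19, adjusted p = 0.532, and 0.03, adjusted p = 0.964). The receptors Plxnd1 and Plxnb2 rose by 0.93 and 0.53 over the class and by 1.32 (adjusted p = 0.00443) and 0.87 (adjusted p = 0.000304) in cluster 3, and were at 0.56 and 0.45 in cluster 11 without a call (adjusted p = 0.391 and 0.297). Nrp2 rose by 0.97 over the class and by 2.22 in cluster 11 (adjusted p = 0.00916), and was at -0.17 in cluster 3 without a call.

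Among ligands, the transmembrane Sema5b rose by 0.81 over the class and was called in both clusters (0.71, adjusted p = 0.038 in cluster 3, and 0.84, adjusted p = 0.00429 in cluster 11). Efnb2 fell by 1.73 over the class and by 1.92 in cluster 3 (adjusted p = 0.0179). Sema4c, Sema6d and Ntn1 rose by 0.82, 0.37 and 0.61 over the class, and the ligand Sema4d and the receptor Robo2 fell by 0.44 and 0.37, but none of these 5 was called in either cluster. In cluster 11 Sema6d was at 0.30 (adjusted p = 0.0942) and Sema4c at 0.49 (adjusted p = 0.505), and in cluster 3 Sema4c was at 0.66 and Ntn1 at 1.24. The sign turned for Sema4d (0.01 in cluster 3 and 0.08 in cluster 11), for Robo2 in cluster 11 (0.68) and for Ntn1 in cluster 11 (-0.17).

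Under ATV-TfR, 5 of 49 members differed between medium and negative astrocyte-like cells, 3 higher and 2 lower (10.2%, beside 4.69% of all genes, 1.95% higher and 2.74% lower). Efna5 was at 61.7 and 70.2 CPM in the negative and 39.9 and 30.4 CPM in the medium libraries (log2 difference -0.84, SE 0.13, adjusted p = 0.000409). Epha4, one of its receptors, was at 57.6 and 57.3 against 44.1 and 43.5 CPM (log2 difference -0.32, adjusted p = 0.047), and Epha5 at 79.2 and 74.2 against 96.6 and 98.9 CPM (0.43, adjusted p = 0.0219). The groups did not overlap for these 3 genes. In the control IgG negative library, with 5048 astrocyte-like cells, Efna5 was at 35.5, Epha4 at 48.2 and Epha5 at 108 CPM. Plxnd1 and Ephb6 rose by 1.18 and 0.98 on the log2 scale from under 5 CPM. Plxnd1 was highest in endothelial-like cells. The summed endothelial list of these astrocyte-like libraries, given below, was also higher in the medium bin, and its part in the Plxnd1 value was not tested. Efna5, Plxnd1 and Epha5 were also called in cluster 3 alone, where 7 of 47 members were called (14.9%, beside 3.60% of all genes). None of the 5 was called in cluster 11 alone, where 1 of 45 members was (2.22%, beside 1.47%), but all 5 kept their direction there, with log2 differences of -0.46 for Efna5, -0.31 for Epha4, 0.41 for Epha5, 0.78 for Plxnd1 and 1.06 for Ephb6. Without ATV-TfR pool 1 part of the 5 lost their calls, and without pool 2 all did (edgeR). All 5 kept theirs without either ATV-CD98hc pool. With the pool as a block 11 members were called (beside 7.94% of all genes).

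Other genes of the same pathways were counted by lists of 18 further netrin, Slit and RGM genes, 45 effectors and 12 partner receptors. In endothelial-like cells of ATV-TfR mice, high against negative, 3 of 14 further netrin, Slit and RGM genes were lower and none higher, 4 of 44 effectors higher and 9 lower, and 2 of 11 partner receptors, Sdc1 and Kdr, lower (beside 3.32% of all genes higher and 6.70% lower). Kdr, a receptor of vascular endothelial growth factor, fell by 0.55 (adjusted p = 0.0463). The effector genes Tiam1, a Rac activator, and Ablim1, an actin-binding protein gene, rose by 2.22 and 1.17 on the log2 scale, and Vav3 and Dpysl3 fell by 4.09 and 5.94. In ATV-CD98hc mice, 1 of 14 was lower in the first list, 2 of 44 effectors were higher and 2 lower, and 1 of 11 partner receptors, Kdr, was higher by 0.75 (beside 1.57% of all genes higher and 3.64% lower). The difference between antibodies did not pass for Kdr (-1.29, SE 0.25, adjusted p = 0.114), and the part of fenestrated-like cells, whose shares of the negative bins differed as given above, was not tested. Tiam1 and Ablim1 rose under ATV-CD98hc too, by 1.98 and 0.88. From medium to high under ATV-TfR, 5 of 14 were lower in the first list, led by Lrrc4c and Dcc, which fell by 3.93 and 3.40. The astrocyte marker list fell along with them under both antibodies, as given above, and its part was not tested. The effectors split into 1 higher and 7 lower of 44, and 1 of 11 partner receptors, Kdr, was higher by 0.77 (beside 0.850% of all genes higher and 7.13% lower). The same step under ATV-CD98hc had 4 of 14 lower, led by Lrrc4c and Dscam, 2 of 44 effectors lower and no partner receptor called (beside 2.43% of all genes lower).

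In astrocyte-like cells of ATV-CD98hc mice, medium against negative, 5 of 15 further netrin, Slit and RGM genes were higher and 2 lower, 9 of 42 effectors higher and 1 lower, and 6 of 10 partner receptors higher and 1 lower (beside 8.25% of all genes higher and 7.47% lower). The 2 that were lower in the first list were the netrin receptors Dcc and Unc5c, with a fall in Dcc by 1.51 (SE 0.15, adjusted p = 5.34e-07) and in Unc5c by 1.31 (SE 0.13, adjusted p = 8.26e-07) on the log2 scale. The partner receptors that rose were Flt4, Flt1, Tie1, Kdr and Tek, receptors of endothelial cells, by 8.47, 6.56, 5.86, 4.49 and 3.40, and Gpc1 by 0.67, beside the higher endothelial list given above. Flt1 and Tie1 are themselves in that list, so their rise is part of its rise. Under ATV-TfR no gene of the first list was called, 4 of 42 effectors were lower, led by Chn2 and Fes, and 2 of 10 partner receptors, Cd44 and Flt1, were higher (beside 1.95% of all genes higher and 2.74% lower). Over whole pools of endothelial-like cells no gene of the 3 lists was called in edgeR in any of the 3 antibody comparisons.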

How the data were processed

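Droplet single-cell RNA libraries were analysed from the deposited feature, barcode and matrix files, which hold raw counts of UMIs per gene and barcode. The counts were made by the authors with Cell Ranger 7.1.0, and Seurat 4 and 5 and the builds mm10 and GRCm38 are also named, per the submitters' processing notes. The annotation release and the strand setting are not stated in the sources here. No deposited cell annotation was used, so class names were rebuilt and may differ from the study's.

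Barcodes needed 500 genes, 800 UMIs and no more than 10% mitochondrial UMIs to be kept (249715 of 265025), and 14466 predicted doublets were removed with scrublet as called through scanpy 1.11.5. In 8 libraries, whose automatic threshold marked under 0.5% or over 25% of cells, the cells above the 94th percentile of the doublet score were removed. These were all low, medium and high libraries of ATV-CD98hc and both high libraries of ATV-TfR. The doublet rule therefore differed between the bins compared for high against negative, for ATV-TfR high against medium and for astrocyte-like cells under ATV-CD98hc. Fits with doublets kept were an alternative. Clustering used 2000 variable genes without the members, Tfrc, Slc3a2, sex-linked, mitochondrial and ribosomal genes, 50 principal components, 15 neighbours and Leiden resolution 1. Of 23 marker lists, 9 named no cluster, and 2.556% of cells stayed unnamed. Endothelial-like cells were clustered again with 1000 variable genes and 30 components.

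Counts were summed per class and library (or pool), where at least 20 cells were present, and tested with edgeR 4.0.16 (quasi-likelihood, TMM scaling, R 4.3.3) over all genes past its low-count filter: 15524 genes with 54 members in endothelial-like libraries, 16049 with 49 in astrocyte-like libraries and 16557 with 58 in endothelial-like pools. The fits used all groups of a class. P-values were adjusted by Benjamini-Hochberg, and a standard error is the log2 difference divided by the square root of its F value. In simulated counts with 200 changed genes, the test recovered 40% of 2-fold and 91% of 4-fold changes for ATV-TfR high against negative (13871 genes), and 8.39% of its calls were false. For ATV-CD98hc high against medium (13858 genes) 89% and 100% were recovered and 14.1% of calls were false, for astrocyte-like cells under ATV-TfR (15034 genes) 100% and 100% with 6.54%, and for ATV-TfR against control IgG pools (16344 genes) 72% and 100% with 8.51%. The changed genes were drawn from those above 10 CPM on average, and the simulated libraries were independent with a common base level. These rates therefore do not cover genes of lower level or the sharing of animals between bins. Genes were named by a fixed rule: those highest in a class or segment at 20 CPM or more, those called in a comparison, and 10 vascular guidance genes by segment. The members and lists were chosen with earlier results of these data known. The pools are separate pairs of animals, while the bins of a pool share animals, so the pool pairs the bins. Deviations of same-pool libraries from their group means correlated at 0.03 to 0.88 over 13 endothelial-like and 0.03 to 0.54 over 12 astrocyte-like pairs. Alternatives were DESeq2 1.42.0, other scaling, filters, UMI minimum, resolution, doublets kept, pools left out, a pool block and sub-clusters. The coordinates of genes are from GENCODE M21 on GRCm38.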

Additional observations from a re-analysis of the deposited data

Results flagged for a closer look

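The change from the negative to the medium bin in astrocyte-like cells differed between ATV-TfR and ATV-CD98hc mice for 8 of 49 members (edgeR's quasi-likelihood test of the difference, beside 6.85% of all genes, a test chosen after seeing the data). Values are log2 changes under ATV-TfR minus those under ATV-CD98hc. The secreted Slit2 differed by -1.58 (SE 0.27, adjusted p = 0.00107), Sema3c by -3.90 (SE 0.85, adjusted p = 0.00761), Sema7a by -1.15 (SE 0.31, adjusted p = 0.0301) and the neuropilin Nrp2 by -1.31 (SE 0.38, adjusted p = 0.0417). The ephrin receptor Epha5 differed by 0.93 (SE 0.15, adjusted p = 0.000825), Ephb1 by 1.29 (SE 0.25, adjusted p = 0.00301), Epha4 by -0.47 (SE 0.13, adjusted p = 0.0381) and the transmembrane ligand Sema4d by 0.57 (SE 0.15, adjusted p = 0.0222).

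Epha5 was at 79.2 and 74.2 CPM in the negative and 96.6 and 98.9 CPM in the medium libraries of ATV-TfR mice, and at 100.4 and 116 against 74.8 and 72 CPM in those of ATV-CD98hc mice, so over the class the antibodies had opposite signs and both single changes were called. In cluster 3 alone the Epha5 difference was 0.81 (adjusted p = 0.0036). In cluster 11 alone Epha5 was at 0.41 under ATV-TfR and 0.23 under ATV-CD98hc, neither called, and edgeR called no member for the difference there (5 of 45 at an unadjusted p under 0.05). Under ATV-CD98hc cluster 3 went from 40.7% and 53.4% of astrocyte-like cells in the negative to 18.8% and 22.7% in the medium bin. Under ATV-TfR cluster 3 went from 34.3% and 36.5% to 37.2% and 42.2%. Cluster 11 rose under both, from 28.9% and 22.8% to 46.6% and 38.2% under ATV-CD98hc. Under ATV-TfR cluster 11 went from 17.8% and 21.9% to 34.6% and 37.4%. Nrp2 was at 6.25 and 4.95 against 4.75 and 3.63 CPM under ATV-TfR and 5.04 and 2.99 against 9.16 and 7.16 CPM under ATV-CD98hc. In cluster 3 alone only the Slit2 and Epha5 differences of these 8 were called: Ephb1 was at 0.15, Epha4 at -0.11, Sema4d at 0.05, Sema3c at -3.13, Sema7a at -0.72 and Nrp2 at 0.41 (adjusted p = 0.26 to 0.96). With doublets kept, Sema3c, Sema7a, Epha4 and Nrp2 lost their calls (adjusted p = 0.056 to 0.28). Without ATV-TfR pool 1 part of these calls was lost, and without pool 2 only Slit2 and Ephb1 kept theirs. The summed endothelial list in astrocyte-like cells was at 23.9 to 29.1 CPM in the negative and 64.8 to 84.3 CPM in the medium bin of ATV-TfR mice, against 28.1 to 28.7 and 722 to 745 CPM in ATV-CD98hc mice, and its part in the Sema3c, Sema7a and Nrp2 values was not tested.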

How the results depend on the processing

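Over the alternatives, 954 values of single named genes kept their direction and call, 195 kept the direction and lost the call, and 19 reversed. Scaling by the median ratio moved the median of all genes by -0.2 (ATV-TfR, high against negative), -0.11 (ATV-TfR, high against medium) and -0.18 (ATV-CD98hc, high against negative) on the log2 scale. Negative bins with under 150 endothelial-like cells limited those comparisons. Where a left-out pool leaves 1 library in a group, that library is assumed to vary like the others. With capillary-like cells only, 1 ATV-TfR negative library of 20 cells remained and high against negative called 0 members. Fitted values there were 5.27 for Sema3f, 8.18 for Slit3 (0 UMIs of each in that library), 2.04 for Efnb1, 0.37 for Ntn4, 0.19 for Sema3g, 0.74 for Efna1 (1 to 5 UMIs) and 0.02 for Nrp1. The first 2 depend on the prior count, and none shows a reversal at this depth. High against medium then called 7 of 50 (beside 4.75% of all genes), with Sema3f at 0.87 on 0 and 1 UMI in the medium libraries and Ntn1 at 0.07. For ATV-CD98hc high against negative, 1 of the calls over all endothelial-like cells held, 4 kept only their direction and that of Sema3c turned, at -0.19. With arterial-like cells only, Nrp2 was at 0.73 (3 and 0 UMIs in the negative libraries) and Efnb1 at 0.84 (6 and 4 UMIs) under ATV-TfR, and high against medium called 10 of 44 under ATV-TfR (beside 4.32% of all genes) and 1 under ATV-CD98hc (beside 0.678%). DESeq2 called 11 members for ATV-CD98hc high against negative, 5 for high against medium, 1 for the difference between antibodies, and 3 and 4 for ATV-TfR and ATV-CD98hc against control IgG. The medium and high bins alone gave 2 and 2 of 56 for those last comparisons (beside 0.751% and 0.714%).

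With the pool as a replicate block, counts were 11 and 11 for ATV-CD98hc high against negative and high against medium, 4 for the difference between antibodies and 11 for astrocyte-like cells under ATV-TfR, and no call of a named gene was lost. Without a low-count filter, which put all 65 members to the test, the difference between antibodies had 1 call (beside 0.253%) and astrocyte-like cells under ATV-TfR 11 (beside 5.61%). In astrocyte-like cells under ATV-CD98hc, cluster 3 alone gave 11 calls of 47 (beside 10.3% of all genes, Sema4d at 0.01, Nrp2 at -0.17) and cluster 11 alone 7 of 45 (beside 3.13%, Epha5 at 0.23, Sema4d at 0.08, Ntn1 at -0.17, Robo2 at 0.68). Under ATV-TfR cluster 11 gave 1 call of 45 (beside 1.47%). Of the 8 members called for the difference between antibodies in astrocyte-like cells, 4 kept their call with doublets kept and 2 in cluster 3, where Nrp2 turned (0.41). In cluster 11 none of the 45 members was called, and 33 of all genes were. Members highest in arterial-like cells numbered 4 in control pools only and 5 in negative bins only or at resolution 2, and in capillary-like cells 1 and 4 in the first 2 settings.

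Leaving out 1 pool at a time, counts ranged from 8 to 20 (ATV-TfR high against negative), 3 to 23 (high against medium), 4 to 6 and 0 to 4 (the same under ATV-CD98hc), 0 to 3 (difference between antibodies), 0 to 9 and 11 to 19 (astrocyte-like cells under ATV-TfR and ATV-CD98hc), 2 to 10 (their difference), 0 to 5 and 0 to 3 (ATV-TfR and ATV-CD98hc against control IgG) and 1 to 2 (capillary-like). These counts stand without the share of all genes called in the same fits. They therefore cannot tell a loss or gain for members from one over all genes. The causes of these changes were not tested.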
